A study of Mus musculus with 3 samples.

Results

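The 9 genes described here take up retinol, turn it into retinoic acid, carry it in the cell and break it down. They are Lrp2, Stra6, Rbp4, Aldh1a1, Aldh1a2, Aldh1a3, Crabp2, Cyp26a1 and Cyp26b1. Members were chosen by gene name, as all non-control probes carrying 1 of these names, which gave 13 probes of 41174 on the array and 9 genes of 27637 names. Earlier results of the same arrays were known when the genes were chosen, so the ratios to the not mated array that follow are a description and carry no test. Of the 13 probes, 10 were well above background on all 3 arrays, and the probe used for each gene was so on at least 2 arrays for all 9 genes.

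RNA came from the utero-tubular junction, the narrow passage between uterus and oviduct, of adult CD-1 female mice in estrus. Each group was 1 pool of 10 females on 1 single-colour (Cy3) Agilent array. One group was not mated, another was mated with a vasectomized male, whose seminal fluid carries no sperm, and the third was mated with a normal male. CD-1 is an outbred stock, and no allele or agent is named for any group. How long after mating the tissue was taken is not stated in the sources used here. With 1 pool per group there was no replicate and no test was possible, so each difference compares pools and has no error between animals.

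Vitamin A circulates as retinol bound to retinol-binding protein. Cells take retinol in through the membrane channel STRA6, or take up the whole complex through the endocytic receptor megalin, the product of Lrp2. Retinol is oxidised to retinal and then, irreversibly, by the retinaldehyde dehydrogenases of the Aldh1a family to retinoic acid, the ligand of nuclear receptors. CRABP2 delivers retinoic acid to the nucleus and the CYP26 enzymes oxidise it for clearance. In the mouse uterus Cyp26a1 is known as a gene of the epithelium that responds to progesterone, and Aldh1a2 as a gene of the stroma.

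Cyp26a1 is itself induced by retinoic acid through response elements in its promoter, which is why its promoter is shown. RefSeq sequences (build GRCm38.p6) were matched for 7 of the 9 genes by symbol, in 12 windows. The 250 bases before the RefSeq start of Cyp26a1, at chr19:37697558-37697807 on the plus strand, read as follows, with the repeated motif in capitals.
Cyp26a1: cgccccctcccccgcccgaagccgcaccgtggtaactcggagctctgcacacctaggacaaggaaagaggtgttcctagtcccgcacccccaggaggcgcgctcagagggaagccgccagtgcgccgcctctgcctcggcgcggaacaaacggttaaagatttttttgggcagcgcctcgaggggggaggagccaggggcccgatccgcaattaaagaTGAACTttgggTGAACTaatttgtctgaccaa
On the opposite strand the repeat reads as below, and it ends 16 bases before the start.
Repeat: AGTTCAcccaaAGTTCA
The search covered both strands for AGGTCA and AGTTCA, in any pairing, repeated with a spacing of 5 bases (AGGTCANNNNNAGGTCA, AGGTCANNNNNAGTTCA, AGTTCANNNNNAGGTCA, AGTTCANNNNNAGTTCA) or 2 bases (AGGTCANNAGGTCA, AGGTCANNAGTTCA, AGTTCANNAGGTCA, AGTTCANNAGTTCA). Of 32851 promoter windows of the table, 13 held such a repeat with a spacing of 5 and 13 one with a spacing of 2, which is 0.0396% for each. Among the 12 windows, which cover 7 of the 9 genes and leave out Crabp2 and Aldh1a3, the 1 match was that of Cyp26a1. The Cyp26a1 window searched ran past the start, to position 37697857. The window of Rarb, a retinoic acid receptor gene, had 0 matches although it holds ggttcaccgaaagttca, because GGTTCA was not searched. The shares and counts therefore hold for the listed letters only, and the search can miss related repeats. A match describes the letters only, and binding was not measured.

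Signals are given as multiples of the 75th percentile signal of the same array, called the scaled signal, and ratios as log2 values of scaled signals. A gene is counted as different at 2-fold. Where a probe was well above background on only 1 of 2 arrays, the fold is a bound, written "at least". It was set against the higher of the dim probe's own signal and the lowest signal among probes well above background on the dim array. The 75th percentile was 873.7 intensity units without mating, 708.4 after normal mating and only 294.6 after vasectomized mating. Of genes with several probes, 51.9% had probes over 2-fold apart in the vasectomized-mated comparison with not mated, and 11.9% in the normal-mated comparison. The software's own error of a log2 ratio was 0.20 to 0.45 for the member probes used, which covers the spot and not the animals.

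Of the 9 genes, 4 were at least 2-fold lower and 1 at least 2-fold higher after mating with a normal male than without mating, and 4 lay within 2-fold. Among all 19300 genes compared, 23.0% were past 2-fold either way, made up of 13.2% lower and 9.81% higher. After mating with a vasectomized male, 5 of 9 were at least 2-fold lower and 2 at least 2-fold higher, against 42.4% past 2-fold either way among 19305 genes, with 16.5% lower and 25.8% higher. Because the choice of genes used these contrasts, nothing is read from those shares or from the medians and ranks that follow. The median log2 ratio of the 9 genes was -0.80 after normal mating and -1.37 after vasectomized mating, beside -0.05 and 0.18 over all genes compared. Both ratios share the not mated array. In pooled tissue, fewer cells of a type and less RNA per cell cannot be told apart, which holds for every ratio given here.

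**Figure D1:**
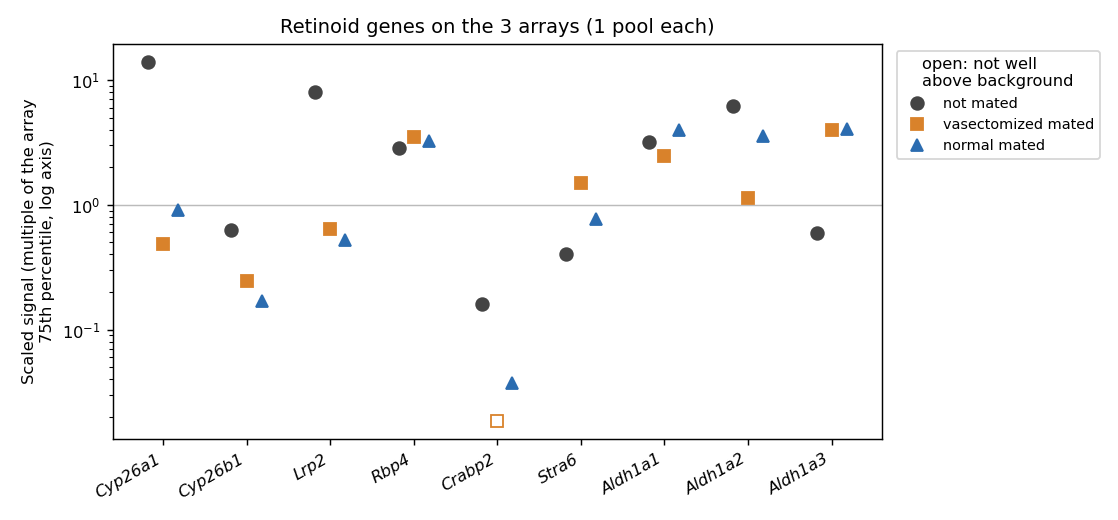
Scaled signal (multiple of the array's 75th percentile, log axis) of the 9 retinoid genes on the not mated, vasectomized-mated and normal-mated arrays, 1 pool of 10 females each and 1 point per array. Cyp26a1 stood at 13.9 without mating and at 0.482 and 0.909 after mating, whereas Aldh1a3 stood at 0.595 without mating and at 4.01 and 4.03 after mating.

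Among the 9 genes, by the probes used, Cyp26a1 had the largest difference from the not mated array in both mated pools. Cyp26a1, which inactivates retinoic acid, had a scaled signal of 13.9 without mating, 0.482 after vasectomized mating and 0.909 after normal mating. The unmated pool was the high one and both mated pools were low. Cyp26a1 was 28.9-fold lower after vasectomized mating (log2 ratio -4.85) and 15.3-fold lower after normal mating (-3.94). Its ratio held rank 15 from the lowest of 19305 genes in the first comparison and rank 41 of 19300 in the second. The single probe lies at chr19:37401759-37401818 on the plus strand (build mm7, per the file headers, which give no exon). Raw intensity was 12172 without mating, so the low values of 142 and 644 are far below it on the dimmer arrays too.

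Cyp26b1 encodes the related enzyme with its own tissue pattern. Its scaled signals were 0.627 without mating, 0.243 after vasectomized mating and 0.170 after normal mating. It was 2.58-fold lower after vasectomized mating (-1.37) and 3.70-fold lower after normal mating (-1.89), so here the normal-mated pool was the lowest. With normexp background correction the vasectomized-mated value was -0.82 and no longer reached 2-fold. Its probe lies at chr6:84601274-84601333 on the minus strand of mm7. The fold by which Cyp26a1 was lower exceeded that of Cyp26b1 by 11.2-fold after vasectomized and 4.14-fold after normal mating, a comparison in which any constant scaling of an array cancels. No probe was matched to Cyp26c1, the remaining family member.

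None of the 5 neighbours of Cyp26a1 with a probe, up to 3 genes away on chromosome 19, was at least 2-fold lower in either mated pool. In RefSeq gene order the neighbours with probes are Hhex and Exoc6 on one side and Myof, Cep55 and Ffar4 on the other. After normal mating Hhex was at -0.18, Exoc6 at -0.12, Myof at -0.45 and Cep55 at 0.34, all within 2-fold. Ffar4, a receptor for long-chain fatty acids, was higher by a bound of 1.16. After vasectomized mating Myof was at -0.91, Cep55 at 0.30, and both Hhex and Exoc6 at 0.52, and Ffar4 was higher by a bound of 0.64. Rbp4 follows Ffar4 in this order. Past Rbp4, Pde6c was not well above background on any array. Fra10ac1, further on, was at -0.90 after vasectomized and -1.47 after normal mating. Lgi1 was lower by a bound of -3.88 after vasectomized mating and at -2.91 after normal mating.

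Of the 2 receptors of uptake, Lrp2 was lower in both mated pools. Stra6, described below, was at least 2-fold higher only after vasectomized mating, and not with spike-in scaling. Lrp2 encodes megalin, which takes up retinol-binding protein and many other ligands. Its brightest probe had scaled signals of 8.04 without mating, 0.636 after vasectomized mating and 0.526 after normal mating. The mated pools were close to each other and far below the unmated pool. Lrp2 was 12.6-fold lower after vasectomized mating (-3.66) and 15.3-fold lower after normal mating (-3.93), at ranks 61 and 42 from the lowest.

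Lrp2 was represented by 4 probes, which read separate stretches of a long transcript on the minus strand of chromosome 2. The brightest lies at chr2:69355058-69355117 in mm7 and is the most 3′. A probe 1.08 kb further toward the 5′ end gave -3.33 and -3.25 for the vasectomized-mated and normal-mated ratios. A dim probe at 12.2 kb was well above background only without mating and gave bounds of at least 3.10-fold and 6.56-fold lower. The probe at 83.3 kb gave -5.33 and -3.89. All 4 probes were thus lower in both mated pools, and the range was wider for the vasectomized-mated array. The labelling was primed from oligo-dT, that is from the 3′ end. On the vasectomized-mated array the ratio of a gene's 5′ probe was lower than that of its 3′ probe, by a median log2 difference of -0.39 over 2390 genes with probes 500 to 5000 bases apart, against 0.06 for the normal-mated array over 2543 genes. For probes over 50000 bases apart the medians were 0.21 and -0.20. The part of probe position in the Lrp2 values was not tested.

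**Figure D2:**
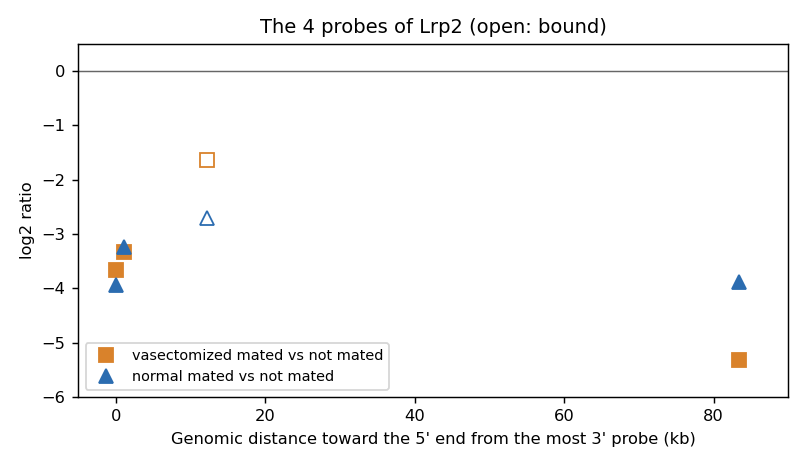
log2 ratio to the not mated array of the 4 Lrp2 probes, plotted by genomic distance (kb) from the most 3′ probe, with squares for the vasectomized-mated and triangles for the normal-mated array and open symbols for bounds. All points lie below 0, and the probe at 83.3 kb shows the widest gap between the arrays, at -5.33 and -3.89.

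Stra6 encodes the membrane receptor that moves retinol from its plasma carrier into the cell. Its scaled signals were 0.401 without mating, 1.49 after vasectomized mating and 0.776 after normal mating. The order was thus the reverse of that of Cyp26a1, with the vasectomized-mated pool highest. Stra6 was 3.71-fold higher after vasectomized mating (1.89) and 1.93-fold higher after normal mating (0.95), just short of 2-fold. With quantile and cyclic loess normalization the latter was 1.03 and 1.05 and passed 2-fold. Scaling to the spike-in probes turned the vasectomized-mated value to -0.75. The probe is given at chr9:58180793-58181404 of mm7, a span longer than a probe. Relative to Lrp2, Stra6 was 46.9-fold higher after vasectomized and 29.5-fold higher after normal mating than without mating.

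Rbp4, the plasma carrier of retinol, was nearly level across the pools. Its scaled signals were 2.87, 3.50 and 3.23 in the not mated, vasectomized-mated and normal-mated pools, a ratio of 0.29 and 0.17 on the log2 scale. Both lie within 2-fold, and 0.17 is below the software error of that log2 ratio, 0.20. With scaling to the spike-in probes the vasectomized-mated value was -2.36, and the normal-mated value was -0.30. The liver and kidney marker list, relevant as a source of plasma protein transcripts, had 1 of 4 markers well above background on each array, and Alb, which encodes albumin, on none.

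Synthesis showed 3 different patterns among the 3 retinaldehyde dehydrogenases. Aldh1a3 had scaled signals of 0.595 without mating, 4.01 after vasectomized mating and 4.03 after normal mating. By this probe the mated pools differed by 0.01 on the log2 scale. Aldh1a3 was 6.74-fold higher after vasectomized (2.75) and 6.77-fold higher after normal mating (2.76). A second, dim probe for Aldh1a3, 18.1 kb toward the 5′ end, was not well above background without mating and gave bounds of at least 3.43-fold and 2.22-fold higher. It was measured in both mated pools and gave -0.63 for normal against vasectomized mating, so this comparison depends on the probe. With scaling to the spike-in probes the vasectomized-mated value of the brighter probe was 0.11.

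Aldh1a2, the main retinoic acid synthesising enzyme of many embryonic tissues, was lower. Its scaled signals were 6.14 without mating, 1.13 after vasectomized mating and 3.53 after normal mating. It was 5.42-fold lower after vasectomized mating (-2.44) and 1.74-fold lower after normal mating (-0.80), so the vasectomized-mated pool stood apart from both others. With scaling to reference genes or spike-in probes the normal-mated ratio was -1.19 and -1.27 and passed 2-fold.

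Aldh1a1, a broadly expressed member that also oxidises other aldehydes, stayed within 2-fold of the not mated array. Its scaled signals were 3.17, 2.45 and 3.97 in the not mated, vasectomized-mated and normal-mated pools. The log2 ratios were -0.37 and 0.33, on opposite sides of 0. Scaling to reference genes or spike-in probes turned the normal-mated value to -0.06 and -0.15, and the spike-in scaling put the vasectomized-mated value at -3.01.

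Within the Aldh1a family, Aldh1a3 stood higher against both relatives in the mated pools. The ratio of Aldh1a3 to Aldh1a2 was 36.5-fold higher after vasectomized mating and 11.8-fold higher after normal mating than without mating. Over normexp, quantile, cyclic loess and the mean over probes, its log2 value ran from 4.70 to 5.31 for the vasectomized-mated and from 2.76 to 3.79 for the normal-mated array. Relative to Aldh1a1, Aldh1a3 was 8.69-fold and 5.40-fold higher. The ratio of Aldh1a3 to Cyp26a1, a synthesising to a degrading enzyme, was 195-fold and 104-fold higher. Ratios of mRNA signals say nothing of the amount of retinoic acid, which was not measured.

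Probes of the 3 genes lie at chr7:62248866-62248925 on the minus strand for the brighter Aldh1a3 probe, chr9:71330506-71330565 on the plus strand for Aldh1a2 and chr19:20343581-20343640 on the plus strand for Aldh1a1, all in mm7.

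Crabp2, the carrier of retinoic acid to its nuclear receptors, was dim. Its scaled signals were 0.159 without mating, 0.0186 after vasectomized mating, where it was not well above background, and 0.0373 after normal mating. It was at least 8.09-fold lower after vasectomized mating and 4.28-fold lower after normal mating (-2.10). Both values depend on the background step, since normexp with its offset gave -0.18 and -0.91, neither past 2-fold. The probe lies at chr3:88062561-88062620 on the plus strand of mm7.

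**Figure D3:**
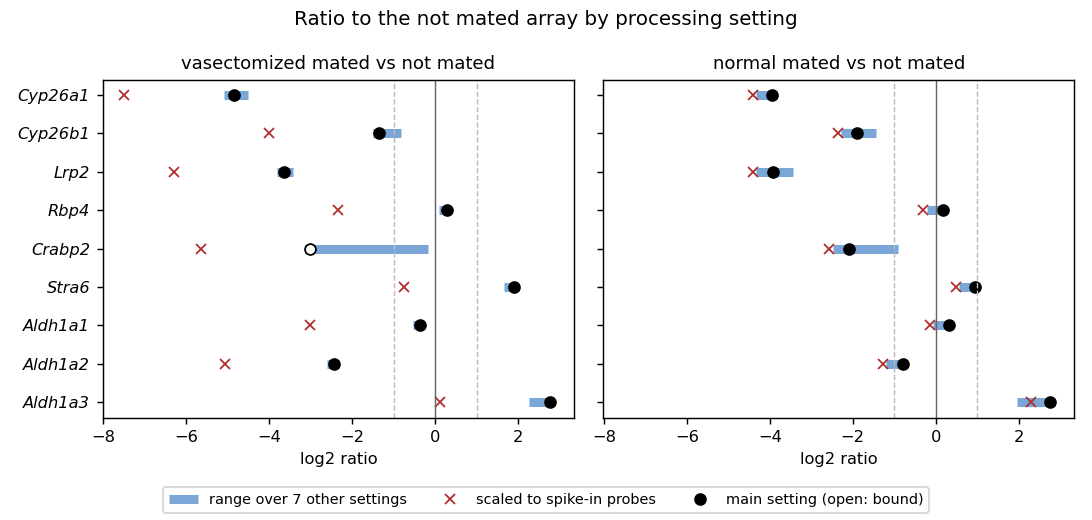
log2 ratio to the not mated array of each retinoid gene (left, vasectomized mated, right, normal mated), with black points for the main setting, blue bars for the range over 7 other settings and red crosses for scaling to spike-in probes. Cyp26a1 and Lrp2 lie beyond -3 in all settings, and the crosses lie furthest to the left on the vasectomized-mated side, where Stra6 is at -0.75.

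Between the mated pools, 1 of the 9 genes was at least 2-fold higher after normal than after vasectomized mating and none was at least 2-fold lower. Over 18987 genes compared, 42.7% were past 2-fold either way, with 14.7% higher and 28.0% lower. The gene was Aldh1a2, 3.11-fold higher (log2 ratio 1.64) in the normal-mated pool. Cyp26a1 was 1.89-fold higher (0.92) and Crabp2 at least 1.89-fold higher, while Stra6 was 1.92-fold lower. Aldh1a1 was at 0.70, Cyp26b1 at -0.52, Lrp2 at -0.27, Rbp4 at -0.12 and Aldh1a3, by its brighter probe, at 0.01. The Lrp2 probe at 83.3 kb instead gave 1.44, so for Lrp2 the comparison depends on the probe. Scaling to the spike-in probes, which raises every ratio of this comparison by the same amount, put all 9 genes at least 2-fold higher.

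The rest of the retinoid pathway was read from 6 lists with 68 other genes, of which 67 had a probe. Of 53 genes compared after normal mating, 8 were at least 2-fold higher, 5 lower and 40 within 2-fold, with a median of 0.02. After vasectomized mating 10 of 52 were higher and 7 lower, with a median of 0.20. Both medians lie near those of all genes, -0.05 and 0.18. Between the mated pools 11 of 54 were higher and 14 lower, with a median of -0.07 beside -0.27 for all genes.

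**Figure D4:**
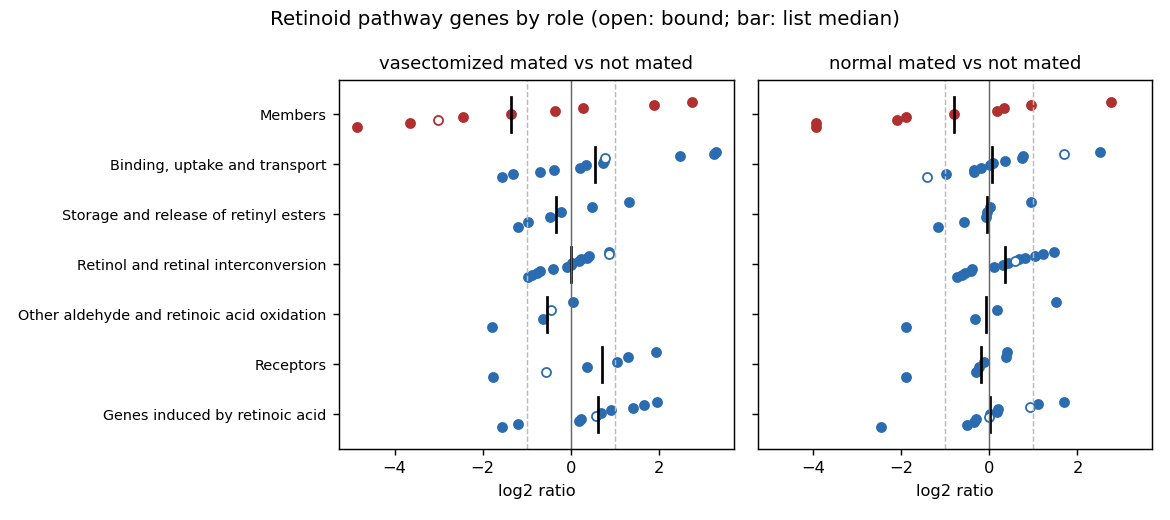
log2 ratio to the not mated array of the 9 members and of the genes of 6 pathway lists (left, vasectomized mated, right, normal mated), 1 point per gene, open for bounds, with a bar at each list's median and dashed lines at 2-fold. The medians of the members lie at -1.37 and -0.80 and that of the interconversion list at 0.01 and 0.37. Members and lists were chosen with earlier results known, so nothing is read from the gap between their medians.

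Among genes of retinol binding and transport, 2 of 12 were at least 2-fold higher and 1 lower after normal mating, and 3 higher and 2 lower after vasectomized mating. Rbp7, a retinol-binding protein found in fat and endothelium, was 9.82-fold higher after vasectomized mating but 1.68-fold after normal mating. Rbp2, the intestinal form, was at least 3.21-fold higher after normal mating. Amn, a partner of the receptor cubilin, was 5.57-fold higher after vasectomized mating and at 0.36 after normal mating. Crabp1 was at least 2.67-fold lower after normal mating. Lrpap1, the chaperone of megalin, was at 0.01 after normal mating, and its probes ran from -1.56 to 0.04 after vasectomized mating.

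Enzymes that interconvert retinol and retinal were mostly within 2-fold. Of 14 compared after vasectomized mating none passed 2-fold in either direction. Of 14 compared after normal mating, 3 stood 2-fold or more higher and 0 lower, namely Rdh10, Dhrs9 and Adh7, with a list median of 0.37. Rdh10, which makes retinal from retinol for retinoic acid synthesis, had scaled signals of 1.37, 1.30 and 2.81 in the not mated, vasectomized-mated and normal-mated pools and was 2.05-fold higher after normal mating, with probes from 0.72 to 1.04. Adh7 was 2.78-fold higher after normal mating and Dhrs9 2.34-fold. Dhrs9 was also 3.996-fold higher in the normal-mated than in the vasectomized-mated pool. Dhrs3, which returns retinal to retinol, was 1.60-fold higher after normal mating and level after vasectomized mating (0.00).

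Of 6 storage genes compared, 0 were at least 2-fold higher and 1 lower after normal mating. After vasectomized mating 1 was higher and 1 lower. These were Lpl, at 1.31 with its other probe at -0.97, and Pnpla2, at -1.19 with its other probe at -3.16. Of 4 other oxidising enzymes, 1 was higher and 1 lower after normal mating, and 0 higher and 1 lower after vasectomized mating. Lrat, which esterifies retinol for storage, was 2.24-fold lower after normal mating, with probes from -1.38 to -1.16, and at -0.23 after vasectomized mating. Cyp1b1, a monooxygenase that can also make retinoids, was 3.74-fold lower after normal mating (-1.90). Cyp2s1 was 2.86-fold higher after normal mating and level after vasectomized mating (0.05). Aldh1a7, a close relative of Aldh1a1, was 3.44-fold lower after vasectomized mating (-1.78).

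Of 6 receptor genes compared, none was at least 2-fold higher and 1 was lower after normal mating, and 3 were higher and 1 lower after vasectomized mating. After normal mating Rara was at 0.37, Rarb at 0.40, Rarg at -0.30, Rxra at -0.25 and Rxrb at -0.12. The exception was Rxrg, a dim member of the retinoid X receptors, which was 3.70-fold lower. After vasectomized mating Rarb was 3.80-fold higher, Rarg 3.42-fold lower and Rxrg 2.08-fold higher, each by the 1 probe measured on both arrays. Rara was a bound of -0.57. Rxrb was 2.45-fold higher as measured by the brighter probe (1.29), while its other probe gave -2.42, and the probes of Rxra gave 0.36 and -1.43.

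Of the genes known to be induced by retinoic acid, 2 of 11 were at least 2-fold higher and 1 lower after normal mating, and 3 of 10 were higher and 2 lower after vasectomized mating. Tgm2, a transglutaminase, had scaled signals of 48.5, 91.6 and 158 in the not mated, vasectomized-mated and normal-mated pools. It was 3.25-fold higher after normal mating with all 3 probes between 1.70 and 1.95, whereas after vasectomized mating its probes ran from -3.01 to 0.92. Hic1, a transcriptional repressor, was 5.51-fold lower after normal and 2.96-fold lower after vasectomized mating.

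Between the mated pools, Dhrs9, Lrpap1 and Rarg had the largest higher ratios of the pathway lists, with Lrpap1 at 1.57 and Rarg at 1.47. For Lrpap1 the other probe gave -0.01. Rxrg was 7.69-fold, Rbp7 5.86-fold and Amn 4.36-fold lower after normal than after vasectomized mating. Crabp1 was at least 3.41-fold and the alcohol dehydrogenase Adh4 at least 2.96-fold lower.

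The genes most like Cyp26a1 across the 3 arrays were sought by the smallest Euclidean distance of log2 scaled signals, centred on each gene's mean, among 15186 genes with an official-style symbol. They were Chst13, Ihh, Prss3, Ces2b and Igfbp1, with distances from 0.15 to 0.43. Ihh was at -4.94 after vasectomized and -3.74 after normal mating, Prss3 at -4.64 and -4.21 and Ces2b at -5.27 and -4.43. Igfbp1 was at -4.53 after normal mating and a bound of -4.16 after vasectomized mating, and Chst13 was not well above background in either mated pool. The genes most like Lrp2 were Nxpe3, Spaca7, Myom2, Sphkap and Cd96, with distances from 0.13 to 0.33, of which only Spaca7 and Myom2 were well above background on all 3 arrays. Likeness over 3 arrays rests on few points.

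Marker lists of the cell types that the tissue could hold differed between the pools as well. Of 10 uterine epithelial markers, all were well above background on each array. Their median was 1.21 after normal and -0.43 after vasectomized mating, beside -3.94 and -4.85 for Cyp26a1. After normal mating 7 of them stood 2-fold or more higher and 0 lower, and after vasectomized mating 2 were higher and 3 lower, with summed scaled signals of 473, 326 and 853 in the not mated, vasectomized-mated and normal-mated pools. Oviduct epithelial markers had 4 of 6 higher and none lower after normal mating, and summed to 281, 382 and 359. Ovgp1 alone made up 268, 364 and 322 of these sums.

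The 8 stromal markers were all well above background, and after normal mating 4 of them were lower by 2-fold or more and 0 higher. They ran from -3.52 for Hoxa11 to 0.20 for Vim, so their median of -0.77, beside -0.80 for Aldh1a2, lies between 2 sets of unlike values. After vasectomized mating the stromal median was 0.29, with 2 higher and 1 lower, beside -2.44 for Aldh1a2, and the list summed to 275, 638 and 219. Col3a1 alone made up 305 of the stromal sum in the vasectomized-mated pool. Of 6 endothelial markers, 6 were lower by 2-fold or more after normal mating and 3 after vasectomized mating, with 1 higher. Smooth muscle markers had 2 of 6 lower in each comparison, with 2 higher after vasectomized mating, and summed to 445, 1194 and 337. Tagln alone made up 915 of the sum in the vasectomized-mated pool, where the list median was -0.69. Mesothelial markers had 3 of 4 higher after normal and 2 after vasectomized mating.

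Neutrophil markers were higher in 5 of 5 cases in both comparisons, and summed to 0.218 without mating, 86.5 after vasectomized and 60.04 after normal mating. S100a9 alone made up 83.2 and 55.7 of the sums after vasectomized and normal mating. Of the neutrophil markers, S100a8 and Cxcr2 were not well above background without mating. Macrophage markers had 2 of 5 higher and 0 lower after vasectomized mating, with a median of 0.46, and 1 higher and 1 lower after normal mating, with a median of -0.02. Their sums were 3.79, 25.0 and 7.80, of which Adgre1 alone made up 20.4 in the vasectomized-mated pool. T and NK cell markers had 3 of 5 lower after vasectomized and 4 after normal mating, with 0 higher, and summed to 1.28, 0.384 and 0.174. Ovary markers were higher in 4 of 4 cases after vasectomized mating and 2 of 4 after normal mating, summing to 0.214, 3.99 and 0.580. Adipocyte markers, relevant because fat makes Rbp4, had none of 4 past 2-fold after normal mating, 1 higher and 2 lower after vasectomized mating, and summed to 21.1, 22.8 and 21.1. The part of these differences in the retinoid values was not tested. Of 11 reference genes, 2 were at least 2-fold higher after normal and 3 after vasectomized mating, with medians of 0.21 and -0.03.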

How the data were processed

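Total RNA was hybridised to 1 array per group. The deposited intensity values are the authors' Agilent Feature Extraction processed signals, on a linear scale, background-corrected within each array, with no scaling between arrays. Per the file headers the software version was 10.5.1.1; the submitters' processing notes name 9.5.3. Of 43379 non-control spots, 68.0%, 65.9% and 70.7% were well above background (not mated, vasectomized mated, normal mated), and none was saturated. The number of arrays limits the precision. Across probes printed 10 times the median SD of log2 signal was 0.0543 to 0.0644.

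Computed here were log2 signals minus each array's 75th percentile over non-control spots, without outlier-flagged spots (no member spot was flagged). The gene value is that of its brightest probe over the 3 arrays, among probes well above background on at least 1 where there were any. Symbols came from the RefSeq table of GRCm38.p6 (23082 probes by accession, 6582 by symbol, 3073 by synonym, 8437 by the file's name), while members were taken by the file's own gene name. R 4.3.3 was used with limma 3.58.1, and Python 3.11.15 with matplotlib 3.10.9, pandas 2.3.3 and numpy 2.4.6. The counting step was tested on simulated data.

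The members and lists were chosen with earlier results of these data known. Besides the members, the text names per comparison and direction the 3 pathway genes with the largest ratio among those measured on both arrays and past 2-fold, the 2 largest bounds, all retinoic acid receptors, Rdh10, Dhrs3, and the 5 genes most like Cyp26a1 and Lrp2. Some genes that the rule selects are not reported here. Other genes named (Lrat, Lpl, Pnpla2, Adh7, neighbours of Cyp26a1 and Rbp4) were chosen after their values were seen or by position. The rule selects Dhrs9 and Lrpap1 between the mated pools only, and their values in the other comparisons were added after they were seen. Alternatives covered background correction (normexp with offset 50 on mean and background intensity), normalization, scaling, the probe of a gene, the filter on dim probes and a 3-fold threshold. No protein sequences were used here.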

Additional observations from a re-analysis of the deposited data

How the results depend on the processing

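No paired analysis was possible because each group has 1 array, and no replicate could be left out. Cyp26a1, Lrp2, Cyp26b1 and Crabp2 were lower and Aldh1a3 higher than without mating, and Aldh1a2 lower, under all 8 alternatives in both comparisons. This holds for the sign only, and not for 2-fold. After vasectomized mating Crabp2 was at -0.18 and Cyp26b1 at -0.82 with normexp, and Aldh1a3 at 0.11 with spike-in scaling. Cyp26a1 ran from -5.09 to -4.53 after vasectomized and from -4.33 to -3.83 after normal mating, or -7.50 and -4.41 with spike-in scaling. Stra6 after vasectomized mating was the single member past 2-fold that turned its sign, at -0.75 with spike-in scaling. That scaling moved the median of all genes from 0.18 to -2.53 after vasectomized mating, from -0.05 to -0.54 after normal mating and from -0.27 to 1.89 between the mated pools, and reference-gene scaling moved the last 2 to -0.46 and -0.65. The cause was not tested. The dim vasectomized-mated array and signals near background limit Crabp2 and the dim probes most.

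Here and in the next paragraphs, smaller changes in the counts of all genes and of pathway genes are left out. For vasectomized against not mated, 5 members lower became 3 with normexp and 7 with spike-in scaling, and 2 members higher became 0 with spike-in scaling. Genes higher were 4989 and became 227 with spike-in scaling and 2714 at 3-fold. Genes lower were 3190 and became 1689 with normexp, 16394 with spike-in scaling and 1497 at 3-fold. Pathway genes higher were 10 and became 0 with spike-in scaling, 16 without a filter and 6 at 3-fold, and the 7 lower became 43 with spike-in scaling and 2 at 3-fold.

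For normal against not mated, 1 member higher became 2 with quantile and with cyclic loess normalization. The 4 members lower became 3 with normexp and 5 with reference genes and with spike-in scaling. Genes higher were 1893 and became 1224 with reference genes, 1097 with spike-in scaling and 973 at 3-fold. Genes lower were 2545 and became 901 with normexp, 4602 with reference genes, 5164 with spike-in scaling and 956 at 3-fold. Pathway genes higher were 8 and became 5 with reference genes, 4 with spike-in scaling and 3 at 3-fold, and the 5 lower became 2 with normexp, 8 with reference genes, 10 with spike-in scaling and 3 at 3-fold.

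For normal against vasectomized mated, 1 member higher became 2 with quantile, cyclic loess and measured signals without bounds, and 9 with spike-in scaling, and 0 lower became 1 with reference genes. Genes higher were 2792 and became 1720 with normexp, 1717 with reference genes, 15356 with spike-in scaling and 1233 at 3-fold. Genes lower were 5309 and became 252 with spike-in scaling, 11116 without a filter and 2682 at 3-fold. Pathway genes higher were 11 and became 18 with cyclic loess, 6 with reference genes, 43 with spike-in scaling and 1 at 3-fold, and the 14 lower became 0 with spike-in scaling, 24 without a filter and 5 at 3-fold.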
